A study of Mus musculus with 8 samples.

Results

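The genes described here are 10 members of the circadian clock: Arntl, Clock, Per1, Per2, Per3, Cry1, Cry2, Nr1d1, Nr1d2 and Dbp. They were chosen by symbol alone, as the rows of the deposited table whose gene name equals one of these 10. All 10 were found, with 27 of the 84475 distinct clusters in the table, which names 16094 genes in all. The table comes from CAGE, an assay that captures RNA by its cap and reads the adjoining 5′ end, which marks where transcription started. A cluster is a run of such ends close together on 1 strand of a chromosome. The samples were taken from the face of 8 mice of strain C57BL/6, aged 28 days. In 4 of them the skin was lesional and the genotype is written Nectin-cre(+);Ikk2FL/FL, which means that Cre recombinase can delete a floxed Ikk2, the gene of a kinase that activates NF-κB. The other 4 were non-lesional and labelled as control, with no statement of which alleles or Cre transgene the controls carried. The series text spells the Cre line Nestin-cre, so the promoter that drives Cre is named differently in different labels. Lesion and genotype change together in these groups and cannot be told apart.

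The names of the 8 value columns in the table match no label of a mouse, so no level of any clock gene, no fold change and no difference between lesional and control skin is given. The hour at which skin was taken, on which levels of clock transcripts depend, was not given in the labels used here. What could be described is where the clock genes' start sites lie, how many clusters each has, how wide these are, which unnamed clusters lie beside them, and what the promoter sequences hold. The clusters belong to the series as a whole, and a cluster does not show in which group its RNA was present. For the labelled tissue, only a listing of clusters was possible. The epidermal keratin genes Krt5, Krt14, Krt1 and Krt10 had 10, 28, 14 and 13 clusters, and the median over all genes was 2. Numbers of clusters are not levels, and genes of other tissues were not listed, so the counts do not establish the tissue.

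The clock is a loop of transcription factors that runs in nearly every cell of the body, skin included, where it times functions such as cell division in the epidermis and hair growth. Arntl (also known as Bmal1) and Clock encode the partners of an activator that binds DNA sequences known as E-boxes. Its targets include the Per and Cry genes, whose proteins inhibit it, and Nr1d1 and Nr1d2, whose REV-ERB proteins repress Arntl through ROR elements. Dbp is a further target and encodes a factor that binds D-boxes, so E-boxes, D-boxes and ROR elements link the loops.

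Promoter windows were available in the RefSeq table (assembly GRCm38.p6) for 9 of the 10 genes, with 13 windows in all. The exception was Per2. The 250 bases before each start were searched on both strands for 4 motifs: the E-box (CACGTG), a variant E-box (CACGTT, which reads AACGTG on the other strand), the D-box (TTATGTAA or TTACGTAA, of which the first reads TTACATAA on the other strand) and the ROR element (AGGTCA preceded by an A and then at least 1 further A or T). Of the 9 genes, 5 held a match and 4 (Arntl, Clock, Nr1d2 and Dbp) held none. These 5 windows are printed here because the matches are spread differently among the Per, Cry and Nr1d1 genes. Each runs 5′ to 3′ on the strand of its gene and ends at the base before the start, with matches in capitals. Positions are on GRCm38.p6: Per1 chr11:69098699-69098948 on the plus strand, Per3 chr4:151044666-151044915, Cry1 chr10:85185055-85185304, Cry2 chr2:92434070-92434319 and Nr1d1 chr11:98775378-98775627, the last 4 on the minus strand.

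Per1: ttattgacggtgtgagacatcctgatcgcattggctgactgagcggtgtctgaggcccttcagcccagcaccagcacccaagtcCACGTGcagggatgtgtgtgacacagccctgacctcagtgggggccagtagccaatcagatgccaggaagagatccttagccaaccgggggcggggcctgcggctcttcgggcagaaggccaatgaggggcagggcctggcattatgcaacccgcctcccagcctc

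Per3: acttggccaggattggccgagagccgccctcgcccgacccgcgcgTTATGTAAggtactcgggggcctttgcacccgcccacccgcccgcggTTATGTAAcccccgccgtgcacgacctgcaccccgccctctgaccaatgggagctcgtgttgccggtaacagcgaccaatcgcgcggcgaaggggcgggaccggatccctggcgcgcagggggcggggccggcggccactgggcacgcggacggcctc

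Cry1: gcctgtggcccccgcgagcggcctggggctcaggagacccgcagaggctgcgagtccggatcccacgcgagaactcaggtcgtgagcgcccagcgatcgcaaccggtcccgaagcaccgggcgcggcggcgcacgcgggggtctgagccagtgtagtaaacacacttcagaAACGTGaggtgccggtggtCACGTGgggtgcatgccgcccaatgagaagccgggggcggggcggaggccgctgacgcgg

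Cry2: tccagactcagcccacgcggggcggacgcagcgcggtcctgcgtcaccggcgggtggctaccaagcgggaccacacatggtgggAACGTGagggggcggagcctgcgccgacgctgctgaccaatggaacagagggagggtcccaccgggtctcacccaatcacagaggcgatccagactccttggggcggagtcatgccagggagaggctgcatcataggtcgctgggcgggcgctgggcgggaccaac

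Nr1d1: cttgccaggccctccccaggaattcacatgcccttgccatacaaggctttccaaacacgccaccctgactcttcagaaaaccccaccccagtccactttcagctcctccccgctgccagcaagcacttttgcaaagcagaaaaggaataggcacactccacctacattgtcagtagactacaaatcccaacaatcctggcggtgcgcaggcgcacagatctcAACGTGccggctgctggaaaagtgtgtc

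The E-box occurred in 2 of the 9 clock genes. In Per1 it began 166 bases before the start, and in Cry1, whose protein is the stronger repressor of the cryptochrome pair, it began 60 bases before the start. Among all 32851 windows of the table, 6.02% held this motif. The variant E-box was found in 3 of the 9 genes, and 3.85% of all windows held it. Both shares are per window, not per gene, and a gene can have several windows. It began 79 bases before the start of Cry1, upstream of that gene's E-box, and 166 bases before the start of Cry2. In Nr1d1 it lay nearest to the start, beginning 28 bases before it. The RefSeq starts of Cry2 and Nr1d1 lie 26 and 44 bp from the nearest transcript start of GENCODE release M21. The distances given hold for the RefSeq starts only. Per3 was the only clock gene of the 9 with the exact D-box letters searched. It held 2 copies with the same letters, beginning 205 and 158 bases before the start. A D-box was present in 0.93% of all windows and 2 or more in 0.021%. No window of a clock gene held the ROR element, which 2.21% of all windows held. That says only that the full pattern, AGGTCA with the preceding letters, was not in the 250 bases searched, and says nothing of the binding of a factor. AGGTCA without those preceding letters was not counted, and the printed Per1 window holds it on the other strand. No 2 matches of different motifs overlapped. Counting windows, 5 of 13 (38.5%) held at least 1 of the 4 motifs, compared with 12.5% of all windows. Windows of the same gene can overlap, and this difference was not tested. It was also not adjusted for base composition, and 12 of the 13 windows exceeded the median G and C share of all windows.

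**Figure D1:**
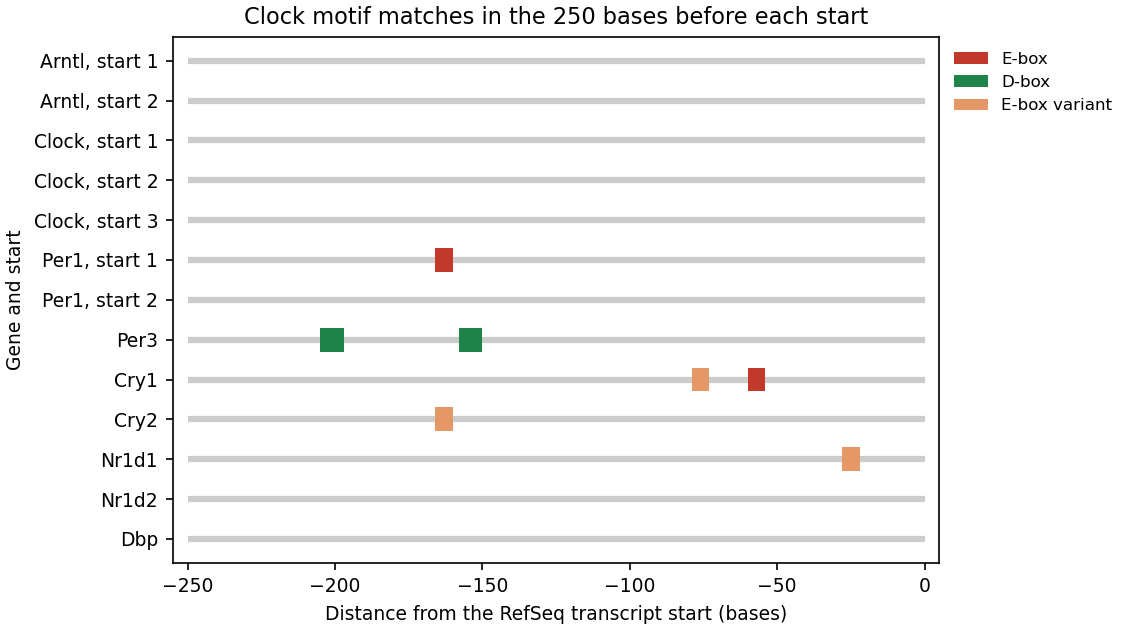
Position of motif matches (coloured boxes) in the 250 bases before each RefSeq start of 9 clock genes; the x axis is the distance from the start in bases, and each grey line is 1 window. Per3 holds 2 D-boxes, Cry1 an E-box and a variant E-box, and the windows of Arntl, Clock, Nr1d2 and Dbp hold no match.

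The same windows differed in base composition. The share of G and C was above the median of all windows (52.4%) in 12 of the 13, and the exception was the third window of Clock at 49.2%. Its RefSeq start lies 1046 bp from the nearest transcript start of GENCODE release M21, compared with 0 bp for the first and second windows of Clock. CpG dinucleotides are rare in most of the mouse genome and frequent in many promoters, which is measured as the number observed over the number expected from the C and G content. This ratio was 1.01 in Per3, 0.99 in Cry1, and 0.91 and 1.08 in the first and second windows of Clock, but 0.54 in the third window of Clock. It was 0.38 in the Per1 window with the E-box and 0.41 in Nr1d1, close to the median of all windows (0.37), while the other Per1 window had 0.76. The windows of Arntl had 0.77 and 0.87. Dbp had 0.66, Cry2 had 0.75 and Nr1d2 had 0.78.

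Most clock genes had a single start cluster. A single cluster was listed for 6 of the 10 (Arntl, Per2, Per3, Cry1, Cry2 and Nr1d2), and the median was 1 cluster per clock gene. Over all genes 45.7% had a single cluster and the median was 2. The remaining 4 were Clock with 8 clusters, Per1 and Nr1d1 with 5 each, and Dbp with 3. As many clusters as Clock, or more, were listed for 8.1% of all genes, and 18.3% had at least 5. No cluster of a clock gene had also been given to another gene. Narrow clusters under 10 bp made up 13 of the 27 (48.1%), near the 48.3% among all clusters with a gene. Counting only clusters of at least 10 bp left 14, with 3 for Clock, 2 for Per1, 2 for Nr1d1 and 1 for each other gene.

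**Figure D2:**
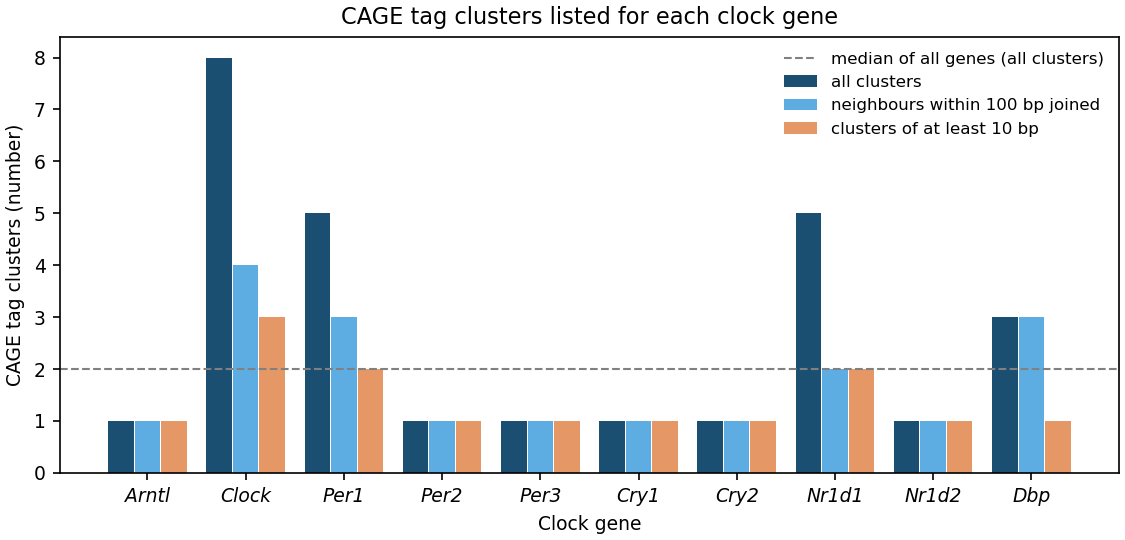
Number of CAGE tag clusters listed for each of the 10 clock genes; the bars count all clusters, clusters after joining neighbours within 100 bp, and clusters of at least 10 bp, and the dashed line is the median of all genes (2). Clock stands highest with 8 clusters, and 6 genes have 1 under every setting.

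The activator genes differed in layout. Arntl lies on the plus strand of chromosome 7, and its only cluster ran from 120350957 to 120351126 (mm9, as are all cluster positions here), a span of 169 bp. Clock, on the minus strand of chromosome 5, had its 8 clusters within 1210 bp, from 76732931 to 76734141. Of these, 3 were wide. The widest spanned 105 bp (76733737 to 76733842), the second 98 bp (76733506 to 76733604) and the third 69 bp (76733981 to 76734050). In the direction of transcription the 69 bp cluster came first, its 5′ edge 208 bp upstream of that of the widest, and the 98 bp cluster last, 238 bp downstream. The other 5 clusters of Clock spanned 2 to 7 bp, and 3 of these lay within 14 bp of a wide one. Joining neighbours no more than 100 bp apart left 4 clusters. The start of Arntl was thus listed as 1 broad region and that of Clock as 3.

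The Per genes encode the inhibitory partners of the cryptochromes, and Per1 and Per2 also respond acutely to hormones and other signals. Per2 had a single cluster of 99 bp on the minus strand of chromosome 1, from 93355828 to 93355927. Per3 had a single cluster of 182 bp on the minus strand of chromosome 4, from 150418649 to 150418831. Per1, on the plus strand of chromosome 11, was listed with separated starts. Its widest cluster spanned 91 bp (68908699 to 68908790), and a cluster of 61 bp (68912421 to 68912482) began 3722 bp downstream of it. A pair of clusters of 3 bp each followed, beginning 5309 and 5314 bp downstream of the widest. The last cluster of Per1 spanned 6 bp and began 96 bp upstream of the widest.

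Per1 was the only one of the 10 with clusters of at least 10 bp separated by 1000 bp or more, which held for 9.65% of the genes with a cluster of that span. GENCODE release M21 lists 6 transcript starts for Per1 on GRCm38. Because the clusters are on mm9, positions were not carried from one assembly to the other and only spacings within the gene were set side by side. The first 2 of these starts are 3731 bp apart, and bases of the 91 bp and 61 bp clusters are 3631 to 3783 bp apart. The last 2 starts lie 5292 and 5305 bp from the first, and bases of the 91 bp cluster and the first 3 bp cluster are 5218 to 5312 bp apart. The remaining 2 starts, 4935 and 4941 bp from the first, fall in no range between the 91 bp cluster and a cluster downstream of it. Yet bases of the 2 clusters of 3 bp are 2 to 8 bp apart, and only these 2 starts, 6 bp apart, have such a spacing. Bases of the 61 bp cluster and the first 3 bp cluster are 1526 to 1590 bp apart. The only separations of starts in that range, 1561 and 1574 bp, are those of the second start from the last 2. Spacings of the pair from both wider clusters thus match the last 2 starts, and only the spacing within the pair matches the other 2. Which starts the pair belongs to was not tested further. The RefSeq window with the Per1 E-box, printed above, precedes a start 1 bp from the second of the GENCODE starts. The sequence before the first start was not analysed here.

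Spacings matched less specifically for Clock. GENCODE lists 5 starts, of which 4 lie within 244 bp. Separations of 206 to 244 bp between them fall within the range for the 69 bp and 105 bp clusters (139 to 313 bp) and also within that for the 105 bp and 98 bp clusters (133 to 336 bp). No pair of starts is 377 to 544 bp apart, the range for the outer clusters of 69 and 98 bp.

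The cryptochrome genes were alike in having 1 cluster each, both on a minus strand. Cry1 had a cluster of 116 bp on chromosome 10, from 84647720 to 84647836. Cry2 had a cluster of 75 bp on chromosome 2, from 92274172 to 92274247. Spans have no error, since each cluster was given once for the series, and whether a difference of this size exceeds that between mice was not tested.

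The genes of the REV-ERB receptors, nuclear receptors that bind haem, both had a broad main cluster. The single cluster of Nr1d2 spanned 196 bp on the minus strand of chromosome 14 (19071470 to 19071666), the broadest among the 10 genes. The widest cluster of Nr1d1 spanned 181 bp on the minus strand of chromosome 11 (98636514 to 98636695). Around it Nr1d1 had a cluster of 8 bp whose 5′ edge lay 32 bp upstream, and clusters of 2, 35 and 3 bp that began 246, 279 and 560 bp downstream. All 5 lay within 595 bp.

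Dbp, the output gene of the group, was the one with no broad cluster. Its 3 clusters on the plus strand of chromosome 7 spanned 39 bp (52960403 to 52960442), 5 bp (52960602 to 52960607) and 6 bp (52960785 to 52960791). The narrower clusters began 199 and 382 bp downstream of the widest. In 15.9% of all genes the widest cluster was narrower than 39 bp.

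Across the 10 genes the median span of the widest cluster was 110.5 bp, and over all genes it was 110 bp with quartiles of 67 and 159 bp. Among the 10, 4 genes lay above the upper quartile: Nr1d2, wider than 91.7% of all genes, Per3 (84.6%), Nr1d1 (84.2%) and Arntl (78.8%). Cry1 (53.1%), Clock (46.8%), Per2 (43.3%), Per1 (38.7%) and Cry2 (29.4%) lay between the quartiles, and Dbp below them. Per3 had the broadest cluster of the Per genes. The CpG ratios given above belong to windows on GRCm38.p6. These windows were not placed on the clusters, so ratio and span are not compared here. For the 4 genes with 2 or more clusters, the widest was also the one nearest the 5′ side only in Dbp. It was so in 41.6% of all genes with 2 or more clusters.

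**Figure D3:**
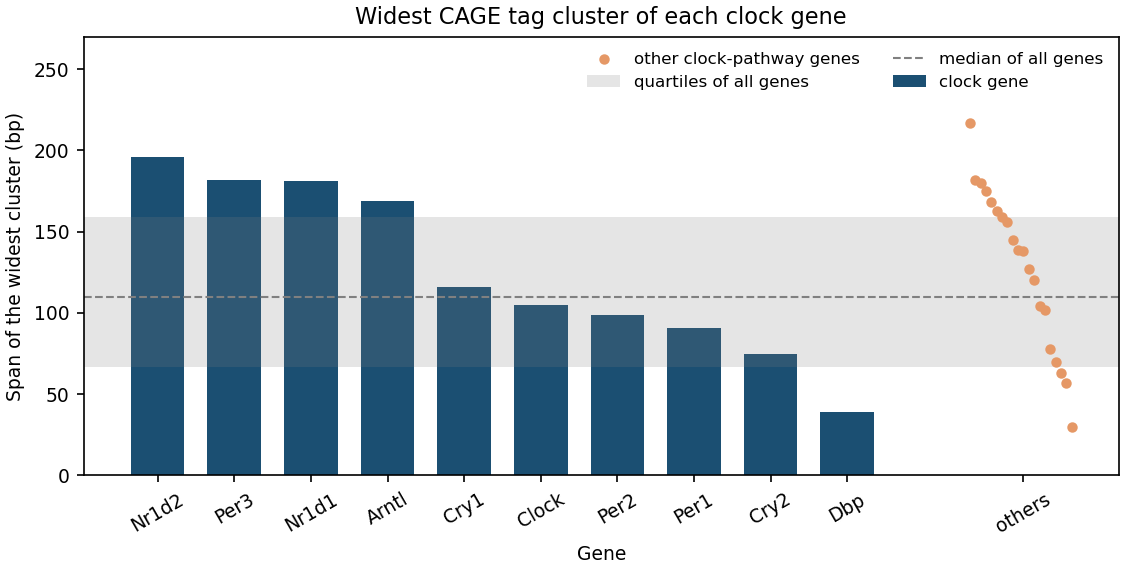
Span in bp of the widest cluster of each of the 10 clock genes (bars, in order) and of 20 other clock-pathway genes (points); the grey band holds the quartiles of all genes (67 to 159 bp) and the dashed line their median (110 bp). Nr1d2, Per3, Nr1d1 and Arntl lie above the band and Dbp, at 39 bp, below it.

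Unnamed clusters on the opposite strand lay upstream of some clock promoters. An opposite-strand cluster within 1000 bp upstream of the widest, with or without a gene name, was found for 3 of the 10 genes, compared with 24.4% of all genes. The share of all genes with an unnamed one is not given here. In Per3 it spanned 22 bp (150418951 to 150418973, plus strand) and lay 120 bp from the Per3 cluster, so that both strands were listed as starts pointing away from each other. In Per1 it spanned 7 bp (68908270 to 68908277, minus strand) at a gap of 422 bp. In Clock the nearest spanned 2 bp (76733886 to 76733888, plus strand), 44 bp from the widest cluster and between it and the 69 bp cluster. A further unnamed cluster of 2 bp on the plus strand (76734114 to 76734116) reached 274 bp upstream of the widest cluster of Clock. None of these carried the name of another gene, and no gene other than the clock gene itself had a cluster facing these promoters within 1000 bp.

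**Figure D4:**
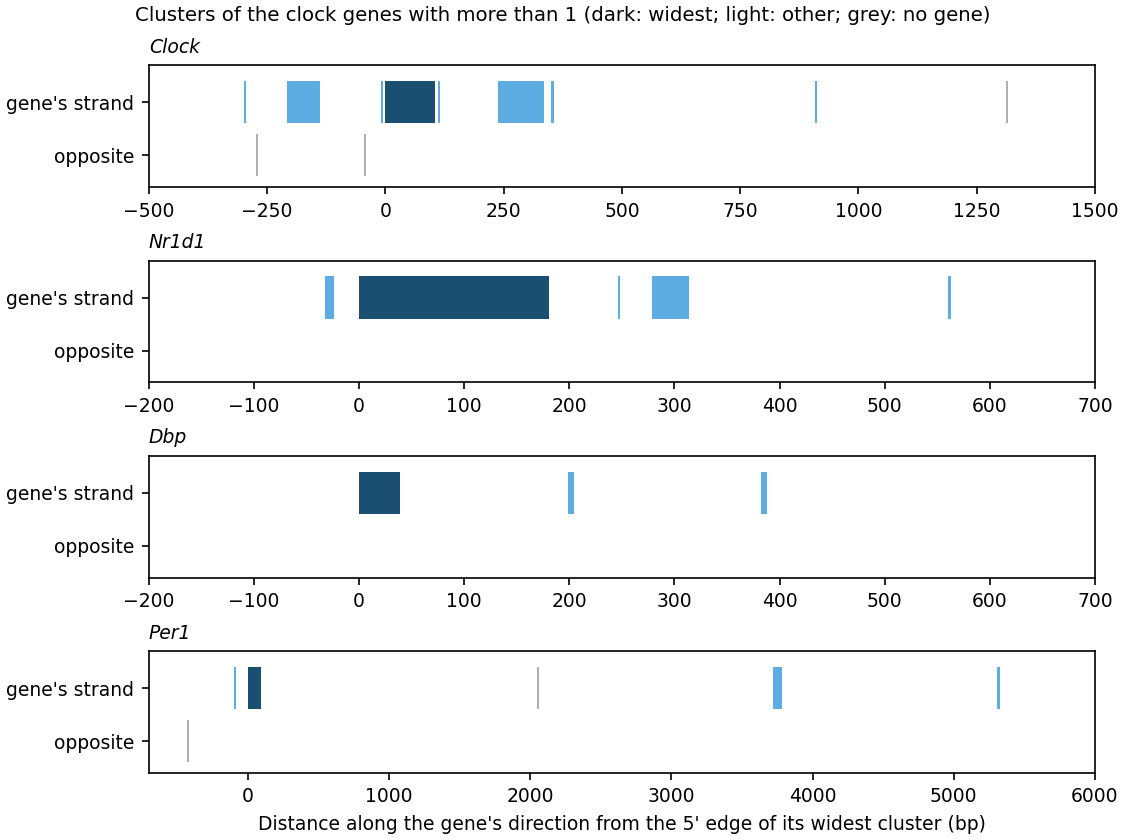
Clusters of the 4 clock genes with more than 1, drawn to scale per gene along the direction of transcription; the x axis is the distance in bp from the 5′ edge of the widest cluster (dark), other clusters of the gene are light, clusters without a gene are grey, and the lower row of each panel is the opposite strand. Clusters under about 1/400 of the axis are drawn at that width; Clock and Nr1d1 are compact, while the second wide cluster of Per1 lies 3722 bp downstream.

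Other genes of the pathway were taken from a list of 21, and 20 had a cluster. Of these, 18 were listed under the current symbol. Ciart, a repressor of the activator pair, was listed under its older name Gm129, and Cipc, another repressor, as 2310044G17Rik. Fbxl21, the gene of a ligase that acts on cryptochromes, had no cluster under a known name among those analysed here. The 20 genes had a median of 3.5 clusters, compared with 2 over all genes. Of the 20, 15 had 2 or more, compared with 54.3% of all genes. Their widest clusters had a median span of 138.5 bp (30 to 217 bp). Their widest cluster exceeded the all-gene median of 110 bp in 13 of 20, and that of the 10 clock genes in 5 of 10. These differences were not tested.

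The paralogues of the activators, Npas2 and Arntl2, each had 1 cluster, of 120 and 102 bp. Bhlhe41, a repressor that competes for E-boxes, had the broadest cluster of the list at 217 bp, and Bhlhe40 had 5 clusters with the widest at 175 bp. Of the ROR genes, whose receptors activate at the elements where REV-ERB represses, Rorb had 1 cluster, of 30 bp. Rora had 3, of which the 2 wide ones, of 82 and 182 bp, were 636000 bp apart. Relatives of Dbp differed from it in that a broader cluster was listed: 139 bp for Tef, which had 8 clusters, and 57 bp for Hlf, which had 2. Nfil3, a repressor at D-boxes, had 1 cluster of 168 bp. Csnk1e, the gene of a kinase that marks PER proteins for destruction, had the most clusters of the list at 11, of which 2 were at least 10 bp, while Csnk1d had 3. With clusters of at least 10 bp, 4 of the 20 genes had a gap of 1000 bp or more: Rora, Usp2 (15415 bp), Tef (8317 bp) and Csnk1e (3010 bp). Over all genes with a cluster of that span the share was 9.65%. Usp2, a rhythmic deubiquitinase gene, had wide clusters of 127, 48 and 101 bp.

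Promoter windows were in the RefSeq table for 16 of the 21, and 6 of these 16 genes held at least 1 of the 4 motifs. The E-box was found in 4 of the 16. Of all windows, 12.5% held at least 1 of the 4 motifs and 6.02% held the E-box. These shares count windows and not genes, and a gene with 2 windows has more chances of a match. No difference from them was tested. Ciart held 3 E-boxes, beginning 116, 58 and 44 bases before its start, and Tef held 1 before each of its 2 starts, at 127 and 138 bases. Bhlhe41 held 1 at 153 bases and Cipc 1 at 17 bases. A D-box was found in Timeless, at 157 bases, and a variant E-box in Rorb, at 234 bases.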

How the data were processed

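CAGE libraries were made from total RNA of facial skin of 8 mice. The deposited table gives, for each tag cluster, its position, a gene symbol where one was given, and values in 8 columns. The authors aligned tags with BWA and HISAT2 to mm9, per the submitters' processing notes; versions, the clustering rule, the gene assignment and whether starts count from 0 are not stated in the labels or the table. Clusters are printed as deposited, and span is end minus start. The 8 value columns match no sample label and were not used, so depth was not analysed here and the tests between groups were not run. The genes and lists were chosen with earlier results of these data known; the 10 genes are always named, and 1 gene of the wider list is not reported here. Rows were reduced to distinct positions with pandas 2.3.3 (Python 3.11.15). Older names came from RefSeq (GRCm38.p6). Windows hold 250 bases before and 50 after each RefSeq start. In 10 of 13 the last 50 occur in a GENCODE M21 transcript. The exceptions are Cry2, Nr1d1 and the second window of Per1, whose starts lie 26, 44 and 0 bp from the nearest GENCODE start. Scripts were tested on simulated catalogues and sequences. Alternatives are given in the closing section.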

Additional observations from a re-analysis of the deposited data

How the results depend on the processing

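Counting only clusters of at least 10 bp lowered the clusters of the 10 clock genes from 27 to 14, and the genes with 2 or more from 4 to 3, as Dbp then had 1. Joining neighbours within 100 bp gave 18 clusters and 4 such genes, and counting rows gave 27. With all clusters counted, 54.3% of all genes had 2 or more. The share of all genes after the 10 bp limit or after joining is not given here. An opposite-strand cluster upstream was found for 3 genes within 1000 bp and for 2 within 400 bp, where Per1 was lost (22.2% of all genes). Measured from the cluster nearest the 5′ side it was found for 2, as Clock was lost. Searching also the 50 bases after each start gave matches in 5 genes, as without them. The settings for genes with several clusters, for opposite strands and for this window were chosen after seeing the data. Other settings for the comparison between groups (normalization, filters, pseudocounts, another test, leaving out libraries, single clusters) were not run, because they need the value columns. No paired analysis was possible because none of the columns of values carries a sample's name or replicate number. What depth limits was not analysed here, so a gene without a cluster may still be expressed at a low level.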

Other observations

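Clusters without a gene were counted within 10 kb of the 5′ edge of each clock gene's widest cluster. There were 20, of which 15 spanned under 10 bp. Arntl, Per2, Cry2 and Nr1d2 had none. Per1 had 6, the widest of them at 120 bp on its own strand, beginning 4432 bp upstream (68904267 to 68904387, chromosome 11) and downstream of the named clusters of Vamp2. Per3 had 5, and 4 of these lay on its own strand 2955 to 4325 bp upstream. Dbp had 3, all on the opposite strand, of which the widest spanned 41 bp and lay 1873 bp downstream (52962276 to 52962317, chromosome 7). Nr1d1 had an unnamed cluster of 38 bp on its own strand 6545 bp downstream of the edge (98630112 to 98630150, chromosome 11). Of the 20, 4 lay on the gene's strand downstream of the widest cluster: 2 for Per1, 1 for Clock and 1 for Nr1d1. To which transcripts these unnamed starts belong was not tested.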
